A study of Mus musculus with 22 samples.

Results

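The bacteria of the colon contents were compared between 4 BALB/c mice made allergic to ovalbumin (OVA) and given vehicle (Ova-veh) and 5 naive BALB/c mice, which are 9 of the 22 samples of the series. The comparison uses every one of the 32 rows of the deposited colon table and the sums of these rows by phylum, order and family. All mice were female and 6 to 8 weeks old. Ova-veh mice were sensitized on day 0 by an intraperitoneal injection of 250 µg OVA with aluminum hydroxide at 4 mg/ml, challenged with 50 µg OVA into the nose on day 7, and gavaged every day from day 1 to day 14 with 200 µl of carboxymethyl cellulose (CMC), the carrier without drug. Colon contents were flushed out on day 15 and their 16S rRNA genes were sequenced over the V3-V4 regions. The methods word the OVA injection as given to each mouse and describe no separate treatment of the naive mice. The groups were held in isolated cages, so the effects of OVA, gavage and cage cannot be told apart, and each sample was taken as 1 mouse. Legends of the study give 5 mice per group, and the sources used here do not say why the table holds 4 Ova-veh mice.

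The contents of the mouse colon are dominated by strict anaerobes of 2 phyla. Bacteroidetes are gram-negative bacteria that carry many enzymes for cutting dietary fiber and host mucus glycans, and release mostly acetate and propionate. Most colonic Firmicutes are Clostridiales, spore-forming anaerobes that include the main producers of butyrate, a short-chain fatty acid used as fuel by the colon epithelium. Less abundant residents include the lactobacilli, which make lactic acid, the sulfate-reducing Desulfovibrio, which release hydrogen sulfide, and Mucispirillum, which lives in the mucus. The question asked of these data is how the colon community of mice with allergic airways stands next to that of naive mice.

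The table gives the share of the 16S reads of a mouse that each taxon received, rounded to steps of 0.1% of reads. A taxon listed at 0 thus held under 0.05%. The rows covered 96.9% of reads in the mouse with the lowest total and 98.6% in the highest, with a median of 98.4%. Read numbers are not given, so the depth behind a share is unknown. Of the 32 rows, 18 are named to genus or species and 14 stop at the family or above. The bare names Lachnospiraceae, Ruminococcaceae and Clostridiales each label 2 rows, which are called here the more and the less abundant row. Intestinal anaerobes filled the table: Firmicutes and Bacteroidetes together held between 94.5 and 96.8% of reads in every mouse. None of the rows belonged to the list of skin, airway and reagent genera (Staphylococcus, Corynebacterium, Pseudomonas and others), which matched 0 of 32 rows.

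Group means were compared by an exact permutation test, two-sided, that ran through every way of dividing the 9 mice into 4 and 5. The smallest p it can give is 0.00794. The p-values were adjusted by Benjamini-Hochberg over all phyla, orders, families or rows. Mouse-to-mouse spread was measured as the distance of each mouse from the middle of its group. In the first form of the spread test these distances were permuted. On simulated tables with no difference, whose rows were drawn independently of each other, this form made more calls than its threshold allows. Its p is thus too small. Every spread result was therefore also tested with the mice relabelled and the middle of each group taken anew at every split, a form chosen after the data had been seen.

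The mean composition of Ova-veh colon contents was not told apart from that of naive mice, whereas the Ova-veh mice lay farther from each other. Group membership accounted for 6.42% of the variation in Bray-Curtis distance, which is 0 for identical and 1 for disjoint communities (pseudo-F 0.480, one-sided exact permutation p = 0.635). The distance to the group centroid was 0.105, 0.0972, 0.160, 0.0640 and 0.0887 in naive mice 1 to 5. In Ova-veh mice 1 to 4 it was 0.268, 0.190, 0.231 and 0.356. Every Ova-veh mouse thus lay farther from its centroid than any naive mouse, with means of 0.261 ± 0.0708 (SD, n = 4) against 0.103 ± 0.0354 (SD, n = 5). The exact permutation p was 0.00794, the smallest possible, by permuting the distances and again with the mice relabelled.

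The size of this result depended on the distance used. With Bray-Curtis distances on square-root shares the relabelled exact permutation p was again 0.00794. With Aitchison distances, which weigh rare and common taxa alike, and with Jaccard distances, which use only presence, it was 0.0556 each. Leaving out any 1 mouse kept the relabelled exact permutation p of the Bray-Curtis spread between 0.0179 and 0.0357. The difference in centroid distance fell from 0.158 to 0.0971 without Ova-veh mouse 4.

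The Ova-veh mice lay on opposite sides of the naive mice. On the first principal coordinate, which held 74.5% of the variation, Ova-veh mice 1 and 3 stood at -0.19 and -0.16, beyond the naive mice, which ranged from -0.057 to 0.018. Ova-veh mice 2 and 4 stood on the other side, at 0.16 and 0.34. The closest communities of all 9 mice were those of Ova-veh mice 1 and 3, at a distance of 0.0738. The most distant were those of Ova-veh mice 1 and 4, at 0.533. Among the 10 pairs of naive mice the distance ran from 0.0929 to 0.210. These positions are given per mouse, and no groups were formed from them.

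**Figure D1:**
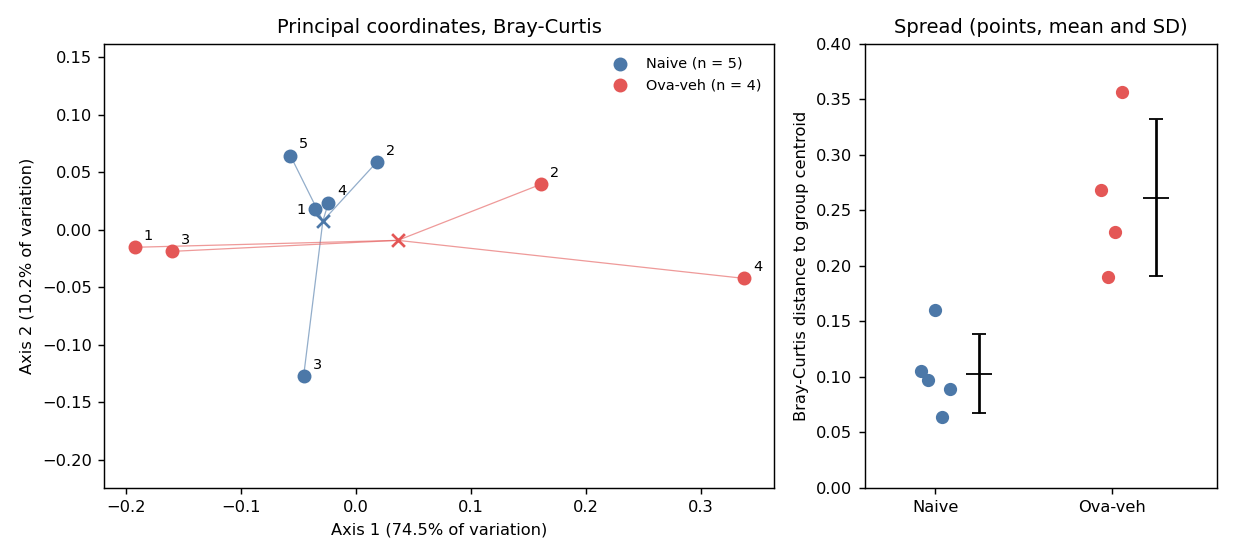
Left, principal coordinates of the 9 colon communities by Bray-Curtis distance (axes, share of variation; numbers, mouse; crosses, group centroids, with a line to each mouse). Right, distance of each mouse to the centroid of its group, with mean and SD (n = 5 naive and 4 Ova-veh); the Ova-veh mice lie between 0.190 and 0.356, all above the highest naive mouse at 0.160.

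Bacteroidetes and Firmicutes showed this pattern at the level of phyla. Bacteroidetes held 55.9, 52.3, 64.5, 57.1 and 59.3% of reads in naive mice 1 to 5 and 72.6, 42.1, 69.3 and 29.8% in Ova-veh mice 1 to 4. Firmicutes held 40.1, 44.2, 30.8, 37.4 and 36.7% in the naive and 24.2, 54.1, 27 and 66% in the Ova-veh mice. No Ova-veh mouse fell within the naive range of either phylum: mice 1 and 3 were above it for Bacteroidetes and below it for Firmicutes, and mice 2 and 4 were the reverse. For Bacteroidetes the mean of Ova-veh mice was 53.5% ± 20.9 (SD, n = 4), against 57.8% ± 4.51 (SD, n = 5) for naive mice (exact permutation p = 0.643). For Firmicutes they were 42.8% ± 20.5 (SD, n = 4) and 37.8% ± 4.91 (SD, n = 5; exact permutation p = 0.619). As the 2 phyla fill nearly all reads, they are largely a single measurement.

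The SD of Bacteroidetes was 4.62 times and that of Firmicutes 4.17 times as large among Ova-veh as among naive mice. Both passed the spread test (adjusted exact permutation p = 0.0238 for each, in the first form and with the mice relabelled). They were the 2 phyla called of 6, or 33.3% of phyla, in either form. Without any 1 mouse neither phylum stayed below 0.05 after adjustment (relabelled adjusted exact permutation p from 0.0857 to 0.25). The unadjusted p lay between 0.0179 and 0.0893 and was highest without Ova-veh mouse 1. With a mouse left out the smallest possible p is higher, 0.0286 without a naive and 0.0179 without an Ova-veh mouse. Without any 1 naive mouse both phyla stood at that smallest p, which adjusts to 0.0857. The p-values of those fits therefore cannot tell whether the spread depends on a naive mouse. The mean absolute deviation of Bacteroidetes was 14.38 percentage points larger in Ova-veh than in naive mice. This difference ran from 13.6 to 15.45 without any 1 naive mouse and fell to 7.05 without Ova-veh mouse 4. The SD of Bacteroidetes among Ova-veh mice was still 16.7 percentage points without mouse 4, against 4.51 in naive mice.

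The Firmicutes to Bacteroidetes ratio, often used as a coarse index of the gut community, was 0.717, 0.845, 0.478, 0.655 and 0.619 in naive mice 1 to 5. It was 0.333, 1.285, 0.39 and 2.215 in Ova-veh mice 1 to 4, outside the naive range in all of them and on both sides of it. The mean of its log2 was -0.36 in Ova-veh and -0.62 in naive mice (exact permutation p = 0.690). The spread of the log2 ratio differed (unadjusted exact permutation p = 0.00794 in both forms). The ratio is formed from the same 2 phylum sums, so this is not a further result.

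**Figure D2:**
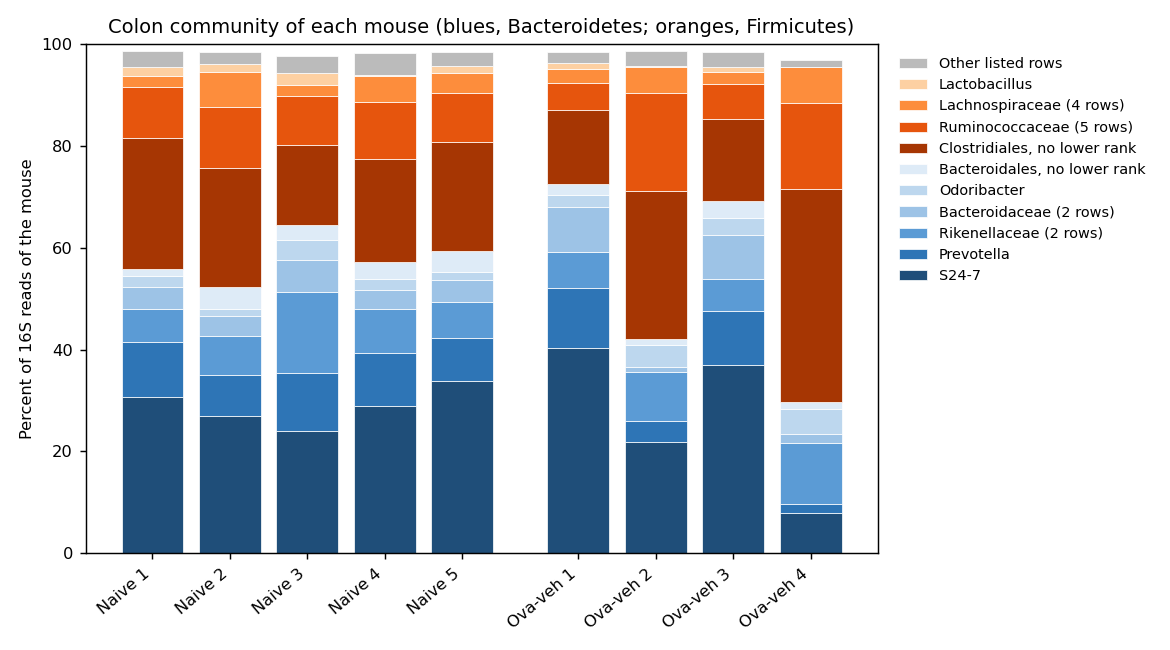
Stacked bars of the share of 16S reads (percent, from 0) in each of the 5 naive and 4 Ova-veh mice, with Bacteroidetes taxa in blue and Firmicutes taxa in orange. The blue part ranges from 52.3 to 64.5% in naive mice and from 29.8 to 72.6% in Ova-veh mice; the space above a bar is the share of reads outside the listed rows.

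The other phyla were minor and none differed between the groups. TM7, a candidate phylum of very small bacteria that live attached to other bacteria, was represented by the family F16, with 0.3, 0.8, 0.9, 2.6 and 1.5% in naive mice and 0.6, 0.6, 0.4 and 0.4% in Ova-veh mice (exact permutation p = 0.151). All Ova-veh mice lay within the naive range, in its lower part. Deferribacteres, of which only Mucispirillum schaedleri of the mucus was listed, held 0.6, 0.6, 0.4, 0.3 and 0.4% in naive mice and 0, 0.7, 0.2 and 0.5% in Ova-veh mice (exact permutation p = 0.571). Proteobacteria held 1.1, 0.5, 0.3, 0.8 and 0.5% against 0.7, 1.1, 0.6 and 0.2% (exact permutation p = 1). Tenericutes, here the cell-wall-less genus Anaeroplasma, held 0.6, 0, 0.7, 0.1 and 0% against 0.3, 0, 1 and 0% (exact permutation p = 1). These ranges overlapped in every case. Of the 6 phyla 0, or 0%, had a mean that differed, at an adjusted exact permutation p under 0.05 as well as before adjustment.

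The Bacteroidales held every Bacteroidetes row, and the family S24-7 was the largest of them. S24-7, also called Muribaculaceae, is a family of the rodent gut that degrades plant and host glycans. It held 30.7, 26.9, 24, 29 and 33.9% of reads in naive mice 1 to 5 and 40.3, 21.9, 36.9 and 8% in Ova-veh mice 1 to 4. Ova-veh mice 1 and 3 exceeded the highest naive mouse and mice 2 and 4 were below the lowest. The mean was 26.8% ± 14.9 (SD, n = 4) against 28.9% ± 3.75 (SD, n = 5), with an exact permutation p of 0.794 for the means. The spread differed before adjustment (exact permutation p = 0.00794 in both forms), but with the mice relabelled the p was 0.107 without Ova-veh mouse 4.

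Prevotella, a degrader of plant polysaccharides such as xylan, held 10.7, 8.2, 11.4, 10.4 and 8.4% in naive mice and 11.7, 4, 10.6 and 1.7% in Ova-veh mice. Mice 2 and 4 of the Ova-veh group thus had less than any naive mouse, and mice 1 and 3 stood near the top of the naive range or above it. The ratio of the means was 0.713 (exact permutation p = 0.333). The Bacteroides row with no species name, a genus known to switch between dietary and mucus glycans, held 3.2, 1.3, 3, 1.4 and 2.2% in naive mice and 7.5, 0.8, 7 and 1.2% in Ova-veh mice. Here the high Ova-veh mice carried more than 2 times the highest naive share, and the other two were below the lowest naive mouse (exact permutation p = 0.357 for the means).

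Bacteroides acidifaciens, a mouse commensal known to induce IgA, was lower in every Ova-veh mouse than in most naive mice. It held 1, 2.6, 3.2, 2.2 and 2% of reads in naive mice 1 to 5 and 1.2, 0.2, 1.6 and 0.6% in Ova-veh mice 1 to 4. Of the 5 naive mice 4 exceeded every Ova-veh mouse, and naive mouse 1 lay among the Ova-veh mice. The difference in means, 0.90% ± 0.622 (SD, n = 4) against 2.20% ± 0.812 (SD, n = 5), had an exact permutation p of 0.0476 and an adjusted p of 0.667. The limma method tests the logarithm of the share row by row, with the estimate of variance drawn in part from all rows. By limma the log2 difference was -1.55 (standard error 0.671, unadjusted p = 0.0433, adjusted p = 0.62). Without Ova-veh mouse 2 it was -0.96 (unadjusted p = 0.0795 by limma). Within the family Bacteroidaceae it made up 23.8, 66.7, 51.6, 61.1 and 47.6% in naive mice and 13.8, 20, 18.6 and 33.3% in Ova-veh mice. This ratio was computed after the values had been seen and was not tested.

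Odoribacter, a genus of the Bacteroidales that can produce butyrate, stood from near the middle of the naive range to above it in Ova-veh mice. It held 2.3, 1.5, 4, 2.3 and 1.6% in naive mice and 2.5, 4.4, 3.4 and 4.9% in Ova-veh mice. Each Ova-veh mouse was above 4 of the 5 naive mice, the exception being naive mouse 3, which was above Ova-veh mice 1 and 3. The means of 3.8% ± 1.07 (SD, n = 4) and 2.34% ± 1.00 (SD, n = 5) gave an exact permutation p of 0.0794 and an adjusted p of 0.667. The Rikenellaceae row, bile-tolerant fermenters, held 6, 6.8, 14.6, 7.7 and 6.7% in naive and 6.8, 8.9, 5.9 and 11.7% in Ova-veh mice. Its sum with AF12, the other Rikenellaceae row, was 6.6, 7.5, 15.9, 8.6 and 7.1% against 7.2, 9.6, 6.4 and 11.9%. The groups overlapped almost fully and the means of the family were 9.14% in naive and 8.78% in Ova-veh mice (exact permutation p = 0.889). The Bacteroidales row with no lower rank held 1.4, 4.2, 3, 3.2 and 4.1% in naive and 2.2, 1.2, 3.3 and 1.5% in Ova-veh mice (exact permutation p = 0.159).

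Summed over the Bacteroidaceae, naive mice had 4.2, 3.9, 6.2, 3.6 and 4.2% and Ova-veh mice 8.7, 1, 8.6 and 1.8%. The list of glycan-degrading Bacteroidales, 7 rows, added up to 52.2, 46.6, 57.5, 51.6 and 53.6% in naive mice and 67.9, 36.5, 62.6 and 23.4% in Ova-veh mice. All Ova-veh sums lay outside the naive range, again on both sides. The log2 difference was above 0 for 3 and below 0 for 4 of these rows, with a median of -0.35. Over all 32 rows it was above 0 for 13 and below 0 for 19, with a median of -0.15. In mean percent 2 of the 7 rows were higher and 5 lower in Ova-veh mice, against 16 and 16 of all 32.

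The Clostridiales, 13 rows, mirrored the Bacteroidales. They held 38.2, 42.6, 27.7, 36.9 and 35.3% of reads in naive mice and 22.7, 54, 25.6 and 65.9% in Ova-veh mice (exact permutation p = 0.579 for the means). The largest share fell to the more abundant row with no lower rank, at 25.6, 22.2, 15.4, 20 and 21.4% in naive and 14.2, 27.9, 16 and 41.4% in Ova-veh mice. Ova-veh mice 2 and 4 were above and mouse 1 below all naive mice (exact permutation p = 0.571 for the means). The ratio of S24-7 to this row ran from 1.2 to 1.58 in naive mice. In Ova-veh mice 1 to 4 it was 2.84, 0.785, 2.31 and 0.193. Together these 2 rows made up 50.5% of the Bray-Curtis distance among Ova-veh mice and 31.5% among naive mice.

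Ruminococcaceae, a family of fiber-degrading and butyrate-producing anaerobes, held 10, 12.1, 9.6, 11.3 and 9.5% in naive mice and 5.4, 19.1, 6.9 and 16.9% in Ova-veh mice. All Ova-veh mice lay outside the naive range, and the SD of the family was 6.04 times as large (adjusted exact permutation p = 0.0450 for the spread in both forms). Its leading genus, Oscillospira, which is known mostly from sequencing, held 7.6, 6.5, 7.2, 7.1 and 5.8% in naive and 3.5, 12, 4.5 and 6.6% in Ova-veh mice. Ova-veh mouse 2 stood above and mice 1 and 3 below every naive mouse. The more abundant Ruminococcaceae row held 1.5, 4, 1.4, 2.9 and 2.5% in naive and 1.5, 4.6, 1.8 and 7.9% in Ova-veh mice. Ruminococcus, which includes cellulose degraders, held 0.8, 1.3, 0.9, 1.2 and 1.1% against 0.4, 2.3, 0.6 and 2.1%. For Ruminococcus the Ova-veh mice were once more split, mice 2 and 4 above and mice 1 and 3 below all naive mice.

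Lachnospiraceae, the other main butyrate-producing family, varied about as much in naive as in Ova-veh mice. The family held 2.1, 6.8, 2.3, 5 and 4.1% in naive mice and 2.7, 5.2, 2.3 and 6.9% in Ova-veh mice, with an SD of 1.96 and 2.17 percentage points. Its more abundant row held 2, 5.9, 1.9, 4.2 and 3.4% against 2.4, 4, 1.9 and 5.2% (exact permutation p = 0.905 for the means). A smaller member, Ruminococcus gnavus, known in humans for mucus degradation, held 0, 0.7, 0.1, 0.3 and 0.2% against 0.1, 0.7, 0.1 and 0.8%. The less abundant Lachnospiraceae row held 0, 0.1, 0.1, 0.2 and 0.3% against 0.1, 0.2, 0.1 and 0.6%. These overlapping values gave log2 differences of 1.06 for each by limma (standard errors 1.21 and 0.994). Naive mouse 1 was listed at 0 for both, and without it the log2 differences were 0.11 for R. gnavus and 0.24 for the Lachnospiraceae row.

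The list of butyrate-associated taxa, 10 rows of Lachnospiraceae, Ruminococcaceae and Odoribacter, added up to 14.4, 20.4, 15.9, 18.6 and 15.2% in naive mice. In Ova-veh mice it added up to 10.6, 28.7, 12.6 and 28.7%, so that mice 2 and 4 exceeded and mice 1 and 3 fell short of every naive mouse. Of its 10 rows, 5 were above and 5 below 0 in log2 difference (median 0.15). Over all 32 rows, 13 were above and 19 below 0 (median -0.15). In mean percent 7 of the 10 rows were higher and 3 lower in Ova-veh mice, against 16 and 16 of all 32. At an adjusted p under 0.05 limma called 0 of the 10 rows and 0 of all 32. Short-chain fatty acids themselves were not analysed here.

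**Figure D3:**
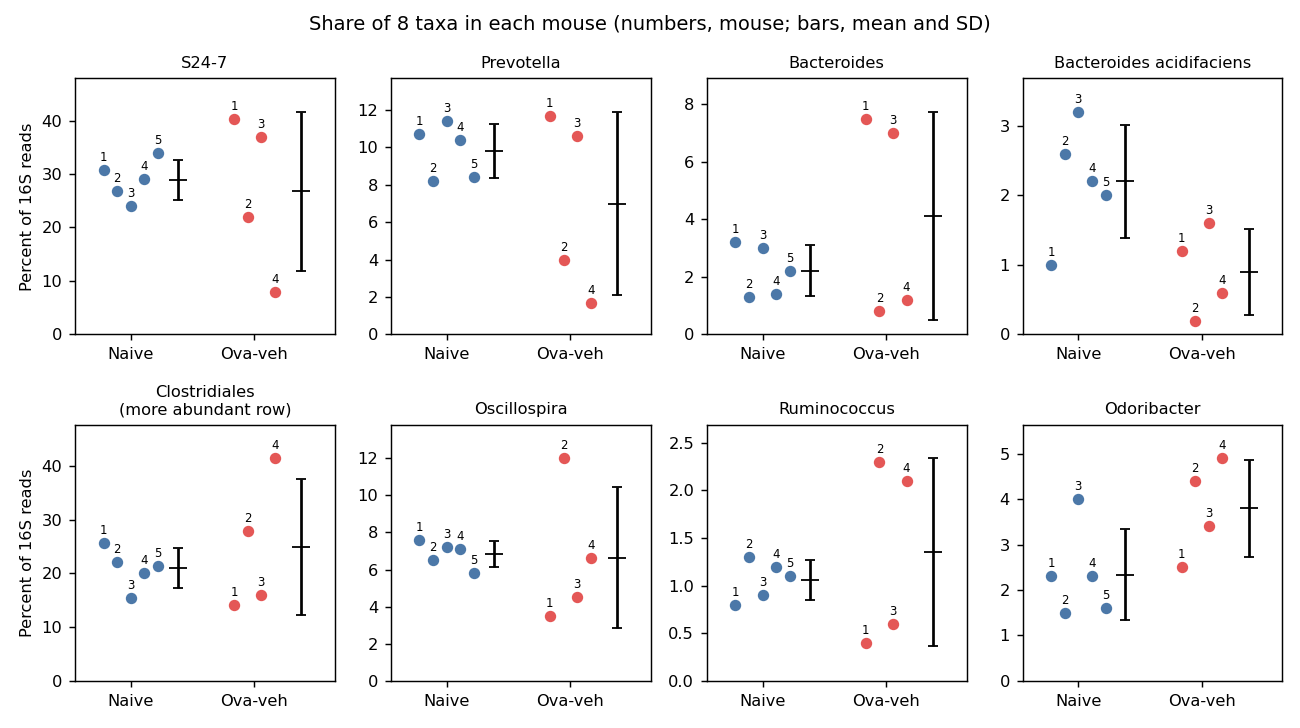
Share of 16S reads (percent) of 8 taxa in naive (blue, n = 5) and Ova-veh mice (red, n = 4); numbers give the mouse, and bars the mean and SD. In S24-7, Bacteroides and Ruminococcus all Ova-veh mice lie outside the naive range, mice 1 and 3 on the side opposite to mice 2 and 4, while in Bacteroides acidifaciens the Ova-veh mice reach at most 1.6%.

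Lactobacillus, the only lactic acid bacterium listed, was also low in Ova-veh mice 2 and 4. It held 1.8, 1.5, 2.3, 0.3 and 1.3% in naive mice and 1.2, 0.1, 1 and 0.1% in Ova-veh mice. The Ova-veh mice all lay below 4 of the 5 naive mice, and naive mouse 4 lay between them. The ratio of the means was 0.417 (exact permutation p = 0.103, adjusted p = 0.667), and the log2 difference of -1.79 had the largest size among the falls by limma (standard error 0.934, adjusted p = 0.62). The mucus-associated list, M. schaedleri and the Bacteroidaceae rows, added up to 4.8, 4.5, 6.6, 3.9 and 4.6% in naive and 8.7, 1.7, 8.8 and 2.3% in Ova-veh mice. Of its 3 rows, 1 was above and 2 were below 0 in log2 difference, against 13 above and 19 below over all 32 rows.

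Sulfate reducers were present at low level in both groups. The 3 Desulfovibrionaceae rows added up to 1, 0.4, 0.2, 0.5 and 0.3% in naive mice and 0.2, 1.1, 0.3 and 0.1% in Ova-veh mice. Desulfovibrio itself held 0, 0.1, 0.1, 0 and 0% against 0, 0.6, 0.1 and 0.1%. A single Ova-veh mouse, mouse 2, set this row apart (log2 difference 1.83, standard error 1.25, adjusted p = 0.62 by limma; 0.92 without that mouse). Over the 5 proteobacterial rows, which add Sutterella and RF32, 2 were above and 3 below 0 in log2 difference. Over all 32 rows, 13 were above and 19 below. In mean percent 3 of the 5 rows were higher and 2 lower in Ova-veh mice, against 16 and 16 of all 32. Sutterella, listed at 0 in Ova-veh mice 2 and 4, was higher by 0.015 percentage points but had a log2 difference of -1.43.

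At the resolution limit of the table, the Clostridiaceae row was listed at 0 in all naive mice and at 0.1, 0, 0.1 and 0.1% in Ova-veh mice. The exact permutation p was 0.0476 and the adjusted p 0.667. By limma the unadjusted p was 0.00554 and the adjusted p 0.177. All of this difference is a single rounding step, and no fold is given because naive mice are listed at 0. Without Ova-veh mouse 2 neither group had any spread left in this row, and limma then called it (adjusted p = 1.37e-06). Erysipelotrichaceae, a family of Firmicutes outside the Clostridiales, held 0.1, 0.1, 0.8, 0.2 and 0.1% in naive and 0.3, 0, 0.4 and 0% in Ova-veh mice (log2 difference -1.64, standard error 1.27 by limma). That difference was -0.78 without Ova-veh mouse 2 and again without mouse 4, the mice listed at 0.

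Over all rows, 0 of 32, or 0%, had a mean that differed at an adjusted exact permutation p under 0.05, and 0, or 0%, were called by limma. Unadjusted, each test had 2 rows of 32, or 6.25%, below 0.05, in both cases the Clostridiaceae row and B. acidifaciens. The groups were fully separated in 0 of 32 rows, or 0%. Among 10 orders 0, or 0%, and among 17 families 0, or 0%, differed in mean at an adjusted exact permutation p under 0.05. Without adjustment 0 orders and 1 family, Clostridiaceae, were below 0.05. The 95% intervals of the log2 difference by limma were wide: from -1.59 to 0.90 for S24-7, from -0.95 to 1.21 for the more abundant Clostridiales row and from -2.24 to 0.53 for Prevotella. Such intervals do not show that the means were alike.

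**Figure D4:**
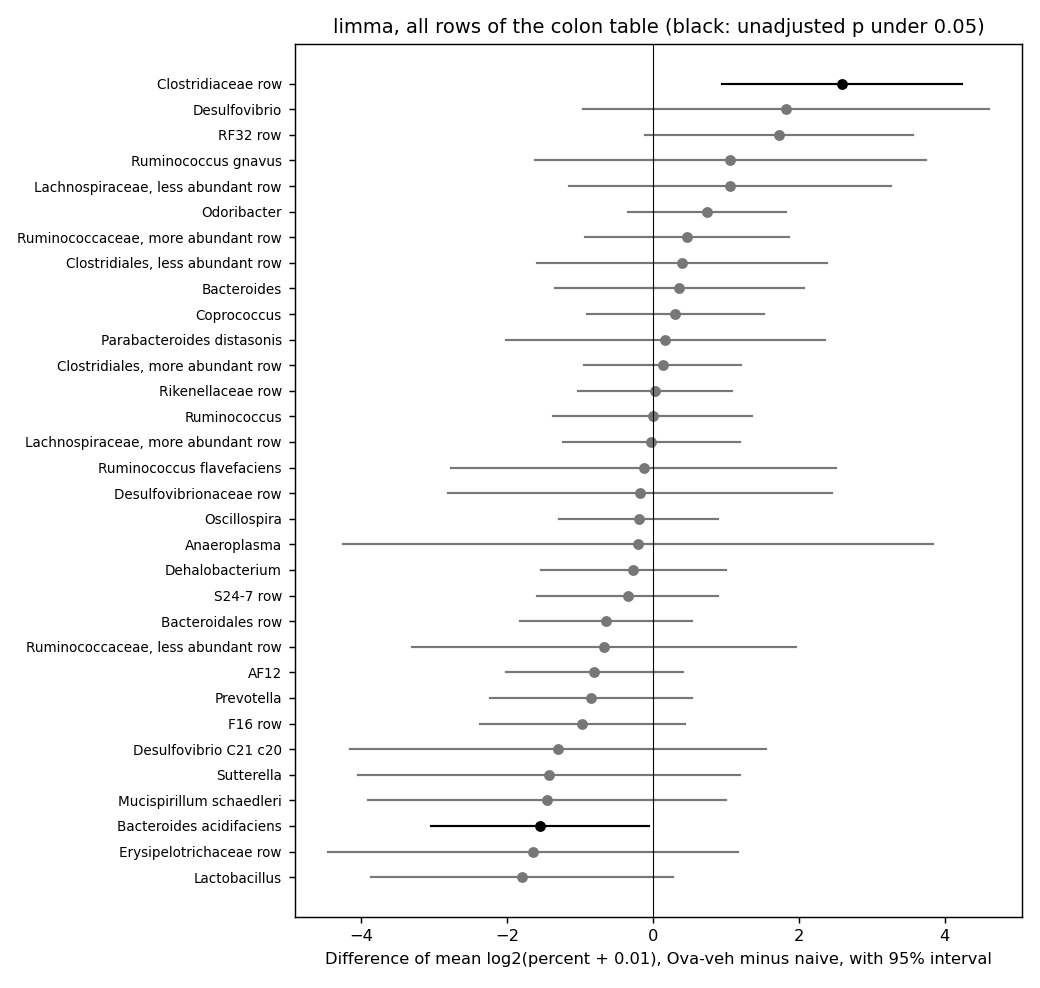
Difference of mean log2(percent + 0.01) between Ova-veh and naive mice by limma for all 32 rows, with 95% intervals; black marks the 2 rows with an unadjusted p under 0.05, of which none passed adjustment. The Clostridiaceae row, at 2.59, is listed at 0 in all naive mice.

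The spread was larger in Ova-veh mice in 21 of the 32 rows by SD. Among the 14 rows with a mean of 1% or more in either group it was larger in 8. The Clostridiaceae and RF32 rows count among the 21 with an SD of 0 in naive mice, which were all listed at 0. In the first form of the spread test 8 rows, 25% of the table, were below an unadjusted exact permutation p of 0.05, and none, 0%, after adjustment. With the mice relabelled 7 rows, or 21.9%, were below it: S24-7, Bacteroides and Ruminococcus (exact permutation p = 0.00794 each), the more abundant Clostridiales row (0.0159), Prevotella (0.0238), Oscillospira (0.0317) and the more abundant Ruminococcaceae row (0.0476). After adjustment 0, or 0%, remained below 0.05, the lowest adjusted exact permutation p being 0.0847. The row that dropped out was RF32, an order of Alphaproteobacteria listed at 0.1% in Ova-veh mice 3 and 4 and at 0 elsewhere.

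Among families, 3 of 17 were called in the first form, or 17.6%: S24-7, Ruminococcaceae and Prevotellaceae (adjusted exact permutation p = 0.0450 each). With the mice relabelled 3, again 17.6%, were called, with Bacteroidaceae (adjusted exact permutation p = 0.0450) in place of Prevotellaceae (0.101). The families S24-7 and Prevotellaceae hold 1 row each, and these same rows did not pass when adjusted over 32 rows. Their calls as families thus rest on the adjustment over 17 and are not further results. Of 10 orders, 3 or 30% were called in the first form, Bacteroidales, Clostridiales and RF32. With the mice relabelled 2 or 20% were called, Bacteroidales and Clostridiales (adjusted exact permutation p = 0.0397 each). The order Bacteroidales has the same values as the phylum Bacteroidetes, and RF32 holds 1 row. In 11 of the 32 rows the SD was larger in naive mice. Among these, F16 had an SD of 0.881 percentage points in naive and 0.115 in Ova-veh mice, and the Rikenellaceae row 3.54 and 2.58.

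**Figure D5:**
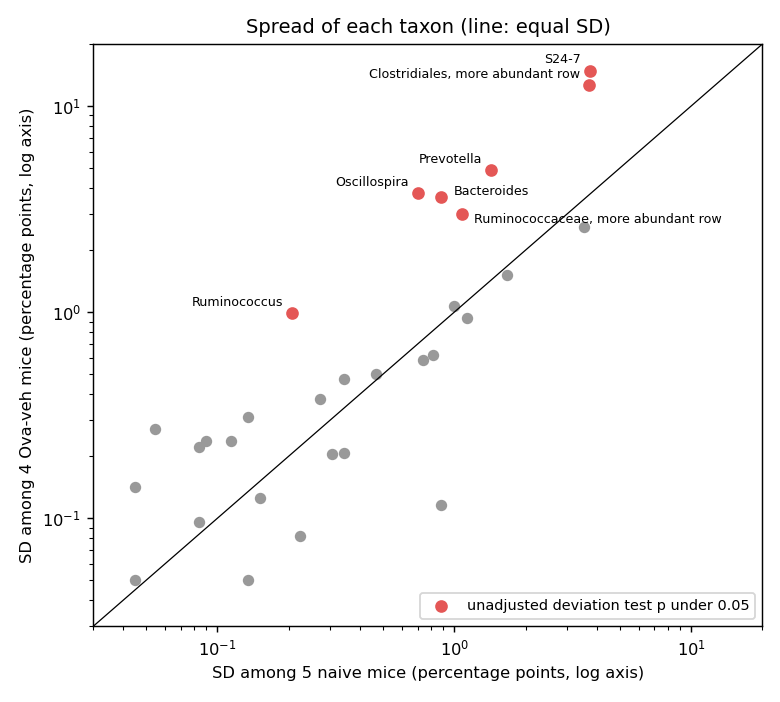
SD of each row among 4 Ova-veh mice against its SD among 5 naive mice (percentage points, log axes), for the 30 rows with an SD above 0 in both groups. Of these rows 19 lie above the line of equal SD; red marks the labelled rows with an unadjusted p under 0.05 in the first form of the spread test.

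Ova-veh mouse 4 was outside the range of the naive mice in 17 of 32 rows and mouse 2 in 16, against 10 for mouse 1 and 9 for mouse 3. In 9 rows Ova-veh mice lay on both sides of the naive range, in 9 only above it, in 6 only below it, and in 8 not outside it at all. In 3 rows, S24-7, Bacteroides and Ruminococcus, 2 Ova-veh mice were above and 2 below all naive mice. A naive mouse set against the other 4 naive mice, a smaller reference, was outside their range in 5 to 13 rows.

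Within-mouse diversity was not told apart. The Shannon index over the listed rows was 2.105, 2.324, 2.368, 2.28 and 2.155 in naive mice and 2.037, 2.233, 2.156 and 2.057 in Ova-veh mice (exact permutation p = 0.119, adjusted over 3 measures 0.179). The inverse Simpson index averaged 6.23 ± 0.932 (SD, n = 5) in naive and 5.13 ± 0.782 (SD, n = 4) in Ova-veh mice, with 3 Ova-veh mice below every naive mouse (exact permutation p = 0.111, adjusted 0.179). The number of rows above 0 was 25 to 30 in Ova-veh and 25 to 28 in naive mice (exact permutation p = 0.849). These measures see only the listed rows.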

How the data were processed

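The authors amplified the V3-V4 regions of 16S rRNA genes from colon contents and deposited, per mouse, the fraction of reads that each taxon received. For the colon libraries the sources used here give no classifier, reference taxonomy, minimum share of a listed row or read numbers. The 4 resveratrol columns and the lung table were not used. Each sample was taken as 1 mouse, and p-values measure the spread between these samples.

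Fractions were turned into percent and added up over each phylum, order and family (4 rows carry no family). Python 3.11.15, numpy 2.4.6, scipy 1.17.1 and pandas 2.3.3 ran two-sided exact permutation tests of means and of absolute deviations from the group median, and one-sided PERMANOVA on rows scaled to 100%. Centroid distances were taken in Bray-Curtis principal coordinates and adjusted for group size. limma 3.58.1 in R 4.3.3 tested log2(percent + 0.01) for rows with a mean of at least 0.01%, in a fit of the 2 groups, at a Benjamini-Hochberg adjusted p under 0.05. Plots were drawn with matplotlib 3.10.9. The limma fit, the permutation test of means, both forms of the spread tests and PERMANOVA were tried on simulated tables of independently drawn rows. The blocked tests, the other distances, the diversity measures and the ratio of phyla were not.

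Values of every mouse are given for each phylum, for rows, orders and families with a mean of at least 2%, for rows with an unadjusted p under 0.05, and for the 3 largest rises and falls by limma among rows with a mean of at least 0.1%; others named were chosen after their values were seen. The 8 lists of taxa, the members and the tests were chosen with earlier results of these data known. Spread at the level of phyla, orders and families and all tests with mice relabelled were added after the data were seen. Alternatives were other distances, scalings, statistics, pseudocounts of 0.001 and 0.1%, filters, the replicate number as a block, and leaving out each mouse.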

Additional observations from a re-analysis of the deposited data

Results flagged for a closer look

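In 6 of the 66 groups of values examined, a single mouse stood far from the rest of its group by Dixon's criterion, which chance alone meets in about 1 of 20 groups. Naive mouse 3 was the high value in 4 of them, which are not independent because a family sum holds its row: the Rikenellaceae row at 14.6% of reads (the next naive mouse had 7.7%), the family Rikenellaceae at 15.9% (next 8.6%), the family Bacteroidaceae at 6.2% (next 4.2%) and the Erysipelotrichaceae row at 0.8% (next 0.2%). Ova-veh mouse 2 held the others, with Desulfovibrio at 0.6% of reads, against 0.1% in the next Ova-veh mouse, and with the Clostridiaceae row at 0, where each other Ova-veh mouse had 0.1%. The last of these is a single rounding step.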

How the results depend on the processing

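Depth is unknown and shares move in steps of 0.1%, so rows near 0 have only 1 or a few steps between the groups; 14 of 32 rows were listed at 0 in at least 1 mouse. The groups accounted for 5.76 to 18.4% of the variation in composition when single mice were left out, the highest share being that without Ova-veh mouse 1 (exact permutation p = 0.25), and the largest share with another distance was 18.8% (Jaccard, exact permutation p = 0.190).

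The community spread, with a difference of 2.70 by Aitchison and 0.0711 by Jaccard distance, passed by permuting the distances (exact permutation p = 0.0317 each) and missed the threshold with the mice relabelled (0.0556 each). These further counts come from the first form of the spread test, whose p is too small. On the log2 scale it called 5 of 10 orders, 6 of 17 families and 6 of 32 rows. With deviations from the group mean it called 6 of 32 rows. In its main setting this form called 3 orders, 3 families and 0 rows. With any 1 mouse left out the calls of phyla, orders and families by spread were 0 throughout, with fewer mice and thus a higher smallest p. The rows called by limma then ran from 0 to 1, the 1 being the Clostridiaceae row without Ova-veh mouse 2.

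The alternatives were followed for the phyla and for a set of named orders, families and rows. In this set 4 differences that had not passed any test changed sign with centred log-ratios. Bacteroidetes went to 0.27, the family Rikenellaceae to 0.35, its row with no genus to 0.14 (0.225 by ranks) and the more abundant Lachnospiraceae row to 0.088. Among rows outside the set, differences above 0 in percentage points went below 0 for Sutterella (-1.32), the less abundant Ruminococcaceae row (-0.55) and Anaeroplasma (-0.094). Leaving out each mouse turned the sign of further differences of means that had not passed, in percentage points: Bacteroidetes from -10.8 to 3.51, Firmicutes from -2.74 to 11.2, Deferribacteres from -0.227 to 0.00667, Proteobacteria from -0.14 to 0.16, Tenericutes from -0.18 to 0.153, the order Clostridiales from -2.04 to 12.4, Bacteroidaceae from -0.62 to 1.95, Lachnospiraceae from -0.66 to 0.90, Rikenellaceae from -1.41 to 1.32 and Ruminococcaceae from -0.767 to 3.8. For single rows these ranges were -6.63 to 4.13 (S24-7), -1.55 to 7.51 (Clostridiales, more abundant), -1.97 to 0.86 (Oscillospira), -1.16 to 1.52 (Rikenellaceae), -0.713 to 0.5 and -0.00667 to 0.16 (Lachnospiraceae, more and less abundant) and -0.16 to 0.05 (Erysipelotrichaceae). In log2 difference by limma they were -0.62 to 0.15 for S24-7, -0.13 to 0.94 for Bacteroides, -0.16 to 0.36 for Clostridiales, -0.53 to 0.058 for Oscillospira, -0.15 to 0.25 for Rikenellaceae and -0.27 to 0.22 for Lachnospiraceae. The log2 Firmicutes to Bacteroidetes ratio ran from -0.24 to 0.67. The difference in the number of rows above 0 ran from -0.733 to 0.933, and was -0.7 among rows with a mean of 0.1% or more. The cause was not tested.

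Replicate numbers were not taken to pair the mice, since no source says what a number marks. The correlation of deviations between same-numbered mice ran from 0.0785 to 0.458 and passed 0.1 in 3 of 4 pairs, not in all. Between mice of different numbers it ran from -0.467 to 0.407. These correlations do not settle whether a number pairs mice. Of naive mice 1 to 4, 2 correlated best with the Ova-veh mouse of their own number, and so did 2 of the 4 Ova-veh mice. With the replicate number as a block, 5.82% of the variation lay between the groups (exact permutation p = 0.75), and limma called 0 rows. The blocked exact permutation test cannot give a p below 0.125, so its 0 calls of phyla, orders, families and rows say nothing. The block turned the differences of Proteobacteria and Tenericutes to -0.025 percentage points each, the more abundant Lachnospiraceae row to 0.0024 and the Rikenellaceae row to -0.034 in log2 difference by limma.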
